A study of Mus musculus with 32 samples.

Results

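Gene expression was compared between liver tumors of mice given 20 mg/kg/day of regorafenib (3 libraries, the high dose) and of mice given vehicle (4 libraries). These are 7 of the 32 libraries of the series, chosen by the treatment and batch in their labels. The tumors grew from BNL-MEA, a single established mouse liver cancer line, in Balb/c mice. The cells had been injected beneath the capsule of the left liver lobe, so that the host's liver surrounded each tumor, and regorafenib was given by gavage. All 7 libraries were of the same labelled batch, which also held 3 libraries from tumors treated at 5 mg/kg/day (low dose). The series as a whole set vehicle, regorafenib, an antibody against VEGFR2 and an antibody against PD1 against each other in 3 experiments, each with its own vehicle libraries. Age and sex of these animals were not given in the sources used here. The labels do not say that the libraries came from separate animals, so the p-values measure the spread between these libraries.

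Regorafenib blocks several kinases. Its targets include the VEGF receptors and TIE2 on endothelial cells, the PDGF and FGF receptors on stromal cells, RAF kinases and the macrophage receptor CSF1R. Blocking VEGF receptors removes a survival and sprouting signal from new vessels, and tissue that loses its vessels runs short of oxygen. Hypoxia-inducible factors then switch on genes for angiogenic ligands and glycolysis. CSF1R holds monocytes and macrophages alive in tissue, and the ERK pathway downstream of most of these receptors drives immediate early genes and the cell cycle. The comparison asked how tumor tissue differed at a dose 4 times the low dose of the study, gene by gene and in lists of genes for these pathways and for the cell types a liver tumor can hold.

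Expression is given as CPM, the share of a library's counts that fall on a gene, scaled between libraries by the TMM method. The 10 libraries of the batch held between 16767130 and 27693689 counts each. The pieces differed in how much liver they held. Alb, the albumin gene, which hepatocytes express, was at 635, 1534, 1400 and 2232 CPM in vehicle replicates 1 to 4 and at 27940, 7037 and 1673 CPM in high dose replicates 1 to 3. High dose replicates 1 and 2 lay above every vehicle library, and replicate 3 lay within the vehicle range. The same order held for the hepatocyte score, an average over 40 hepatocyte genes on the log2 CPM scale, which was 3.84, 5.89, 5 and 6.95 in vehicle and 11.23, 8.77 and 6.06 in high dose libraries. High dose replicate 1 also had the lowest TMM factor (0.678) and the highest share of mitochondrial counts (5.37%, against 1.77% to 2.86% in the other 9 libraries of the batch).

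Genes of other tissue also differed between the pieces. The score of 18 B and plasma cell genes was between -1.41 and -0.49 in vehicle libraries and 2.45, 4.93 and -0.98 in high dose replicates 1 to 3, so that replicates 1 and 2 were high and replicate 3 was not. Fat cell genes were found in a single library: in high dose replicate 2 Adipoq had 2080 counts, Plin1 1249 and Cfd 7708, against at most 3, 1 and 40 in the other libraries of the batch. Afp, a marker of liver cancer cells of hepatocyte type, was near 0 in all 7 libraries (0.37 to 0.962 CPM), whereas the mesenchymal genes Vim (1319 to 5994 CPM) and Col1a1 (931 to 3754 CPM) were abundant in each. Results are therefore given in 3 ways: for the 3 high dose libraries against the 4 vehicle libraries, for the same comparison at equal hepatocyte score (the score as a covariate), and, as a value without a spread of its own, for high dose replicate 3 alone against vehicle. In such bulk tissue, fewer cells of a type and less RNA per cell cannot be told apart.

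**Figure D1:**
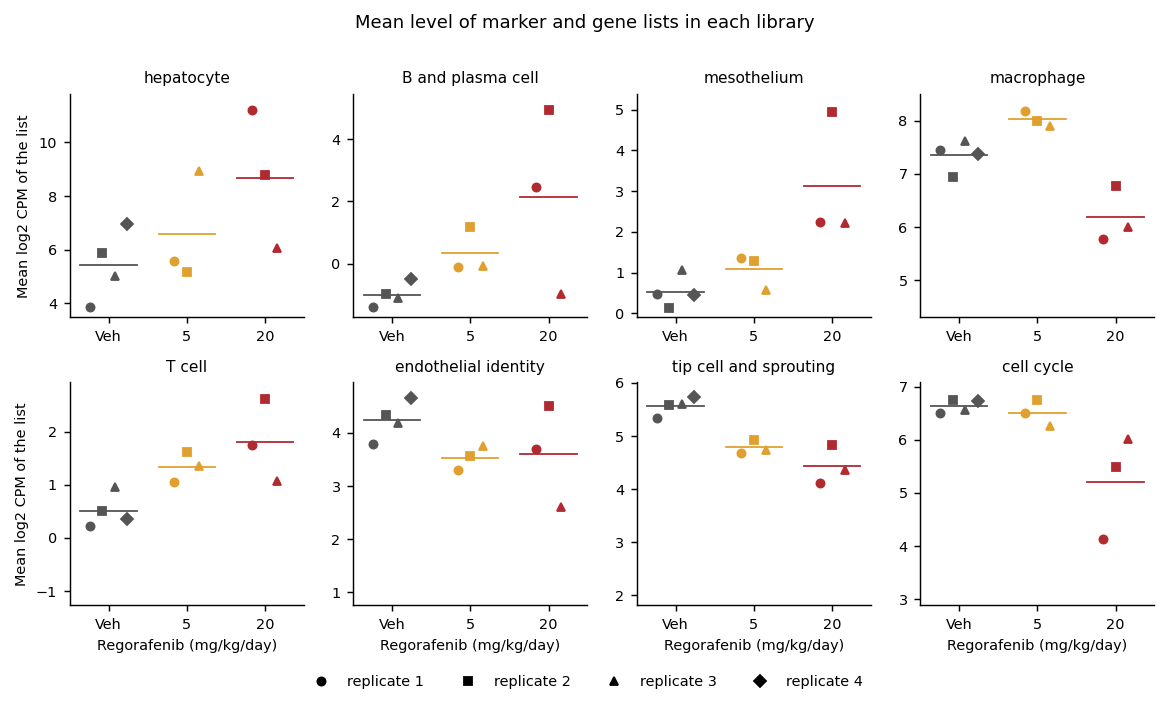
Mean log2 CPM of the genes of 8 lists in each library (points, marked by replicate) for vehicle, low dose and high dose tumors, with a line at each group mean. High dose replicates 1 and 2 stand above the vehicle libraries for hepatocyte genes (11.23 and 8.77) and B and plasma cell genes (2.45 and 4.93), whereas replicate 3 lies among the vehicle libraries for both.

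Between high dose and vehicle, 2582 of 16525 tested genes (15.6%) passed an adjusted p of 0.05 (edgeR quasi-likelihood test, 2-sided), 1455 higher (8.8%) and 1127 lower (6.82%), and 6621 (40.1%) had an unadjusted p under 0.05. At equal hepatocyte score 139 genes passed (0.841%), 47 higher (0.284%) and 92 lower (0.557%), and 2774 (16.8%) had an unadjusted p under 0.05. Both fits shared 113 of these genes, 43 higher and 70 lower. A gene was called liver-linked where its log2 CPM correlated with the hepatocyte score at r of at least 0.7 within groups of the 22 libraries of the other experiments. Of all tested genes 907 (5.49%) were liver-linked, against 254 of the 1455 rises (17.5%) and 0 of the 1127 falls. The number of genes past the threshold was 2678 without low dose replicate 3 and moved by over 1.5 times when each other library was omitted in turn. Omitting vehicle replicate 1, 2, 3 or 4 left 38, 83, 15 or 26 genes, and omitting low dose replicate 1 or 2 left 135 or 284. Omitting high dose replicate 1 or 2 left 956 or 537, whereas 7030 passed once high dose replicate 3 was dropped. The 3 low dose libraries were part of the fit, where they add to the estimate of the spread. With the 7 compared libraries alone 4 genes passed and 5395 had an unadjusted p under 0.05, and of all genes on the lists below Kcne3 was then the single call. The calls are therefore printed with the value in each library. With total counts as the scaling, 282 genes passed and the all-gene median went from 0.02 to -0.13, so changes are relative to that median.

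**Figure D2:**
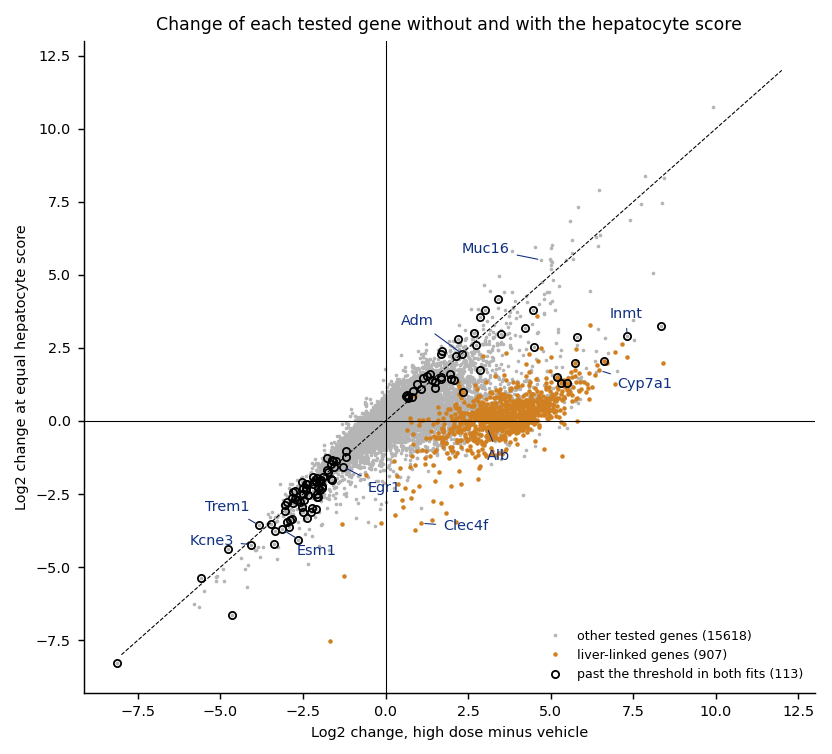
Log2 change of each of 16525 tested genes between high dose and vehicle (x axis) against the same change at equal hepatocyte score (y axis). The 907 liver-linked genes are orange, and the 113 genes past the threshold in both fits are circled. Liver-linked genes lie far to the right and mostly near 0 on the y axis, whereas circled falls lie near the diagonal.

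Genes of monocytes and macrophages fell. Of 21 tested macrophage genes 14 fell, where 6.82% of all tested genes did. The median log2 change of the list was -1.29, against 0.02 for all genes, -1.02 at equal hepatocyte score and -1.44 for high dose replicate 3 alone. Ccr2, the receptor that brings monocytes from blood into tissue, Ccr1, another chemokine receptor of myeloid cells, and Itgam, the integrin CD11b, each lay far below vehicle in all 3 high dose libraries.

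Ccr2 (ENSMUSG00000049103.14, chromosome 9, 124101950 to 124113557) was at 115, 163, 158 and 140.0 CPM in vehicle and 10.9, 32.5 and 8.82 CPM in high dose libraries. Its highest high dose library was well under its lowest vehicle library. Ccr2 changed by a log2 value of -3.05 (SE 0.45, adjusted p 0.0169), which is 8.27-fold lower, and by -3.09 (adjusted p 0.0444) at equal hepatocyte score. Ccr1 (ENSMUSG00000025804.5, chromosome 9, 123962124 to 123968692) was at 69, 71.7, 64.6 and 65.1 CPM in vehicle, a narrow range, and at 4.7, 15.1 and 10.7 CPM in high dose. All 3 high dose libraries were low again, and the change was -2.73 (SE 0.34, adjusted p 0.0143), or -2.39 (adjusted p 0.0221) at equal score. Itgam (ENSMUSG00000030786.18, chromosome 7, 128062640 to 128118491) stood at 75, 68.5, 79.5 and 53 CPM against 4.58, 15.2 and 9.8 CPM. Replicate 1 was the lowest of the 3, and none reached the vehicle range. Itgam changed by -2.8 (SE 0.36, adjusted p 0.0143) and by -2.43 (adjusted p 0.0297) at equal score.

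Cx3cr1 (ENSMUSG00000052336.7, chromosome 9, 119901616 to 120069879), the fractalkine receptor of monocytes and resident macrophages, was at 227, 174, 292 and 247 CPM in vehicle and 27.1, 64.6 and 32 CPM in high dose libraries. The groups did not overlap, and the change was -2.51 (SE 0.33, adjusted p 0.0143) and -2.3 (adjusted p 0.0431) at equal score. Csf1r, which encodes the CSF1 receptor, a target of the drug, was at 493, 304, 610.4 and 539.9 CPM against 108, 233 and 116 CPM. Its groups did not overlap, and the change of -1.68 (SE 0.33, adjusted p 0.0307) was -1.51 (adjusted p 0.131) at equal score, so it did not pass there. Further falls were those of Adgre1, which encodes the macrophage marker F4/80, at -1.21 (SE 0.32, adjusted p 0.0433), the lysozyme gene Lyz2 at -1.19 (SE 0.31, adjusted p 0.0428), the lysosomal protease Ctss at -1.49 (SE 0.29, adjusted p 0.0302), and the complement genes C1qa, C1qb and C1qc at log2 changes of -1.45, -1.29 and -1.45. The LPS coreceptor Cd14, the Fc receptor Fcgr1, Aif1, the transcription factor Spi1 (PU.1) and the adaptor Tyrobp also fell, with log2 changes of -1.25, -1.85, -1.61, -1.46 and -1.42. Of the 21 genes, Itgam and Cx3cr1 passed at equal hepatocyte score, where 15 had an unadjusted p under 0.05 and a negative change. Apoe, which hepatocytes express as well, went against the list, at 2962, 1514, 3907 and 3320 CPM in vehicle and 27600, 8801 and 2786 CPM in high dose libraries (2.16, SE 0.64, adjusted p 0.0505). The count of 14 was 2, 3, 0 and 1 without vehicle replicates 1 to 4, 3, 5 and 14 without low dose replicates 1 to 3, and 10, 14 and 14 without high dose replicates 1 to 3.

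Trem1 (ENSMUSG00000042265.13, chromosome 17, 48232768 to 48246924), a receptor that amplifies inflammatory signals in neutrophils and monocytes, was at 6.17, 11.2, 4.66 and 5.95 CPM in vehicle and 0.34, 0.403 and 0.706 CPM in high dose libraries, with 6, 11 and 18 counts in the latter. It was almost lost in all 3 high dose libraries. Trem1 changed by -3.83 (SE 0.42, adjusted p 0.0109), which is 14.2-fold lower, and by -3.57 (adjusted p 0.022) at equal score, and it passed in all 10 fits that left out a library. Clec5a (ENSMUSG00000029915.14, chromosome 6, 40574894 to 40585821), a lectin receptor of myeloid cells, was at 23.4, 33.9, 23.5 and 26.1 CPM against 1.92, 4.95 and 2.71 CPM. These groups did not overlap either, with a change of -3.06 (SE 0.33, adjusted p 0.0109) and of -2.88 (adjusted p 0.0221) at equal score. Il1b (ENSMUSG00000027398.13, chromosome 2, 129364570 to 129371139), the cytokine interleukin 1 beta, was at 45.2, 69.1, 60.8 and 27.9 CPM in vehicle, where replicate 4 was lowest, and at 5.43, 9.24 and 7.88 CPM in high dose libraries. Il1b changed by -2.75 (SE 0.36, adjusted p 0.0143) and by -2.66 (adjusted p 0.0326) at equal score. Fpr2, a formyl peptide receptor, changed by -1.99 (SE 0.35, adjusted p 0.024), and by -2.37 (adjusted p 0.0462) at equal score.

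Lists of polarized macrophages held members of both directions. Of 17 tested genes of M1 macrophages, the inflammatory type, Il1b, Fpr2, the costimulatory gene Cd86 (-1.27, SE 0.29, adjusted p 0.0355) and the transcription factor Irf5 (-1.02, SE 0.22, adjusted p 0.0334) fell and Ccl5 (1.46, SE 0.39, adjusted p 0.0449) rose, where 6.82% of all tested genes fell and 8.8% rose. Nos2, the inducible nitric oxide synthase, was at 4.16, 12.1, 3.93 and 8.77 CPM in vehicle and 17.1, 8.21 and 10.2 CPM in high dose libraries, overlapping groups with a change of 0.71 (SE 0.44, adjusted p 0.249). Tnf was at 1.65, 1.89, 1.4 and 1.31 CPM against 2.04, 3.33 and 2.27 CPM, and its change of 0.71 (SE 0.33, adjusted p 0.137) did not pass. Of 13 tested genes of M2 macrophages, the type associated with repair, the mannose receptor Mrc1 (-1.42, SE 0.27, adjusted p 0.0277) and Egr2 (-1.29, SE 0.29, adjusted p 0.036) fell, and the chemokine Ccl22 (2.55, SE 0.66, adjusted p 0.0428) rose, so that in both lists the share that rose was near or below that of all genes. The list medians were 0.15 (M1) and 0.98 (M2), and -0.46 and -0.2 at equal score. For high dose replicate 3 alone they were -0.71 and -0.56. Arg1, an M2 marker of the study, was at 18, 53, 14.6 and 39.1 CPM in vehicle. In high dose replicates 1 to 3 it was at 678, 97.5 and 30.7 CPM. Its change of 3.11 (SE 1.03, adjusted p 0.0614) did not pass and was -0.2 (adjusted p 0.889) at equal score. Of the fits that left out a library, Il1b passed in 9 of 10, Fpr2 in 6, Mrc1 in 4, and Cd86 and Egr2 in 3. Ccl5 and Ccl22 did not pass without vehicle replicates 1, 2, 3 or 4, low dose replicates 1 or 2, or high dose replicates 1 or 2, and Ccl5 not without low dose replicate 3 either.

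Among the ligands that recruit monocytes, Ccl7 and Ccl12 fell and Ccl8 rose. Ccl7 was at 7.28, 9.08, 6.94 and 5.32 CPM in vehicle and 1.58, 4.07 and 1.8 CPM in high dose libraries. The groups did not overlap, and the change was -1.52 (SE 0.36, adjusted p 0.0376), or -1.58 (adjusted p 0.141) at equal score. It passed in 3 of 10 fits that left out a library. Ccl12 was at 21.1, 24.9, 23.6 and 14.5 CPM against 1.92, 9.16 and 4.86 CPM and changed by -1.97 (SE 0.44, adjusted p 0.0345), or -1.63 (adjusted p 0.16) at equal score. Ccl2, the main ligand of Ccr2, was lower in every high dose library (10.4, 13.5 and 14.3 CPM) than in every vehicle library (21.4, 28.7, 19.8 and 18.3 CPM), but its change of -0.79 (SE 0.24, adjusted p 0.0508) did not pass. Ccl8 went the other way, at 4.4, 3.77, 7.38 and 1.91 CPM in vehicle and 10.9, 86.4 and 43.1 CPM in high dose libraries, with a change of 3.42 (SE 0.67, adjusted p 0.03) and of 4.17 (adjusted p 0.0454) at equal score. Without any 1 of vehicle replicates 1 to 4, low dose replicates 1 and 2 or high dose replicate 2 the call of Ccl8 was lost. Of 17 tested neutrophil genes Trem1 fell and 0 rose by edgeR, where 6.82% and 8.8% of all tested genes did, but 3 members were higher at an unadjusted p under 0.05, DESeq2 called 3 higher and voom 0, and edgeR called 4 higher without high dose replicate 3. S100a8 was at 7.69, 35.3, 3.93 and 6.63 CPM in vehicle, where replicate 2 was high, and 14.4, 5.28 and 5.96 CPM in high dose libraries.

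Endothelial genes fell in part. Of 22 tested genes of tip cells and sprouting, the leading cells of a growing vessel and their Notch partners, 7 fell, where 6.82% of all tested genes did. At equal hepatocyte score 5 fell, where 0.557% of all tested genes did. The list median was -0.88, and -0.62 at equal score and -1.01 for high dose replicate 3 alone. Of 34 tested genes of endothelial identity 5 fell, beside the same 6.82% of all tested genes. The median was -0.44, but -1.17 at equal score and -1.75 for replicate 3 alone, the high dose piece with the least liver.

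Kcne3 (ENSMUSG00000035165.14, chromosome 7, 100176502 to 100184869), a potassium channel subunit used as a tip cell marker, was at 10.6, 19.9, 12.1 and 16.1 CPM in vehicle and 0.792, 0.806 and 0.98 CPM in high dose libraries. The 3 high dose libraries were nearly alike and lay far below each vehicle library. Kcne3 changed by -4.08 (SE 0.43, adjusted p 0.0109) and by -4.23 (adjusted p 0.011) at equal score, and passed in all 10 fits that left out a library. Esm1 (ENSMUSG00000042379.8, chromosome 13, 113209659 to 113218098), a tip cell protein that VEGF induces, was at 11.1, 22.1, 31.3 and 17.2 CPM in vehicle and 3.79, 1.65 and 1.57 CPM in high dose. Vehicle libraries varied more here, yet the groups did not overlap, and the change was -3.13 (SE 0.48, adjusted p 0.0187) and -3.71 (adjusted p 0.0235) at equal score. Dll4, the Notch ligand of tip cells, was at 10.7, 14.2, 15.8 and 17.3 CPM against 4.53, 4.11 and 1.37 CPM and changed by -2.12 (SE 0.42, adjusted p 0.0306), or -3.02 (adjusted p 0.011) at equal score. Hey1 (ENSMUSG00000040289.8, chromosome 3, 8663359 to 8667256), a target of Notch, was at 60.5, 58.7, 70.7 and 85.3 CPM in vehicle and 7.07, 9.93 and 18.9 CPM in high dose, highest in replicate 3. It changed by -2.52 (SE 0.36, adjusted p 0.0165) and by -2.08 (adjusted p 0.0221) at equal score. The basement membrane collagens Col4a1 and Col4a2 and the semaphorin receptor Plxnd1 fell, with log2 changes of -1.16, -1.15 and -1.07. Igfbp3, which encodes a binding protein of insulin-like growth factors, was at 154, 228, 193 and 186 CPM in vehicle and 158, 70.7 and 21.8 CPM in high dose libraries, and passed at equal score only, at -2.58 (adjusted p 0.0489). Angpt2 did not pass: it was at 10.1, 14.1, 19.6 and 12.5 CPM in vehicle and 5.21, 20.2 and 4.04 CPM in high dose libraries, where replicate 2 was high.

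Of the identity genes, Bcl6b (ENSMUSG00000000317.11, chromosome 11, 70224128 to 70229798), an endothelial transcription factor, was at 9.59, 15.1, 9.98 and 15.9 CPM in vehicle and 1.75, 2.27 and 0.706 CPM in high dose libraries. No high dose library came near the vehicle range, and the change was -3 (SE 0.43, adjusted p 0.0159), with -3.47 (adjusted p 0.0221) at equal score. Cldn5, a tight junction protein, was at 10, 10.1, 10.8 and 11.7 CPM, a close set of values, against 3.17, 4.54 and 1.06 CPM. Its change of -1.86 (SE 0.43, adjusted p 0.0366) was -2.51 (adjusted p 0.0524) at equal score. The sialomucin gene Emcn and the adhesion molecule gene Icam2 fell, with log2 changes of -1.86 and -1.69. Pecam1, which encodes CD31, did not: it was at 47.5, 74.8, 60.3 and 81.2 CPM in vehicle and 34.8, 136 and 20.6 CPM in high dose libraries, highest of all 7 in replicate 2 and lowest in replicate 3, with a change of -0.04 (SE 0.54, adjusted p 0.959) that turned to 0.01 with liver genes left out of the scaling. Cdh5, the cadherin of endothelial junctions, was at 59.3, 102, 85.3 and 111.8 CPM against 28.5, 62.5 and 17.4 CPM and missed the threshold (-1.31, SE 0.4, adjusted p 0.0526). Vwf, which encodes von Willebrand factor, went the other way in high dose replicates 1 and 2, at 2.96, 5.71, 8.33 and 13.1 CPM in vehicle and 35.7, 103.4 and 7.13 CPM in high dose libraries, and missed the threshold as well (2.69, SE 0.82, adjusted p 0.0525). Of the 34 genes 16 had an unadjusted p under 0.05 at equal hepatocyte score, all lower, where 16.8% of all tested genes had one in either direction. The count of 7 tip cell genes was 2, 1, 1 and 1 without vehicle replicates 1 to 4, 3, 3 and 7 without low dose replicates 1 to 3, and 7, 6 and 10 without high dose replicates 1 to 3. That of 5 identity genes was 1, 1, 0 and 0 without vehicle replicates 1 to 4, 1, 1 and 4 without low dose replicates 1 to 3, and 1, 10 and 6 without high dose replicates 1 to 3.

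The receptors that regorafenib is known to inhibit changed little as a list. Of 19 tested target kinase genes Csf1r and Flt1 fell, where 6.82% of all tested genes did, and the median log2 change was -0.49. Flt1, which encodes VEGFR1, was at 24.4, 50.6, 30.8 and 46.7 CPM in vehicle and 10.7, 19.2 and 4.94 CPM in high dose libraries, without overlap, and changed by -1.71 (SE 0.44, adjusted p 0.0418) and -2.32 (adjusted p 0.0678) at equal score. Kdr, which encodes VEGFR2, was at 26.4, 53.3, 38.5 and 58.4 CPM against 43.9, 46 and 8.35 CPM. High dose replicates 1 and 2 lay within the vehicle range and replicate 3 far under it, and the change was -0.43 (SE 0.51, adjusted p 0.552), or -1.65 (adjusted p 0.14) at equal score. Flt4, which encodes VEGFR3, had a change of -0.9 (SE 0.65, adjusted p 0.323) and passed at equal score only, at -2.68 (adjusted p 0.0221). Pdgfrb and Pdgfra, the PDGF receptors, changed by -0.69 (SE 0.25, adjusted p 0.0743) and -0.75 (SE 0.35, adjusted p 0.136). Without any 1 of vehicle replicates 1 to 4 or low dose replicates 1 and 2, no member fell past the threshold, and without high dose replicate 3, 6 did.

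**Figure D3:**
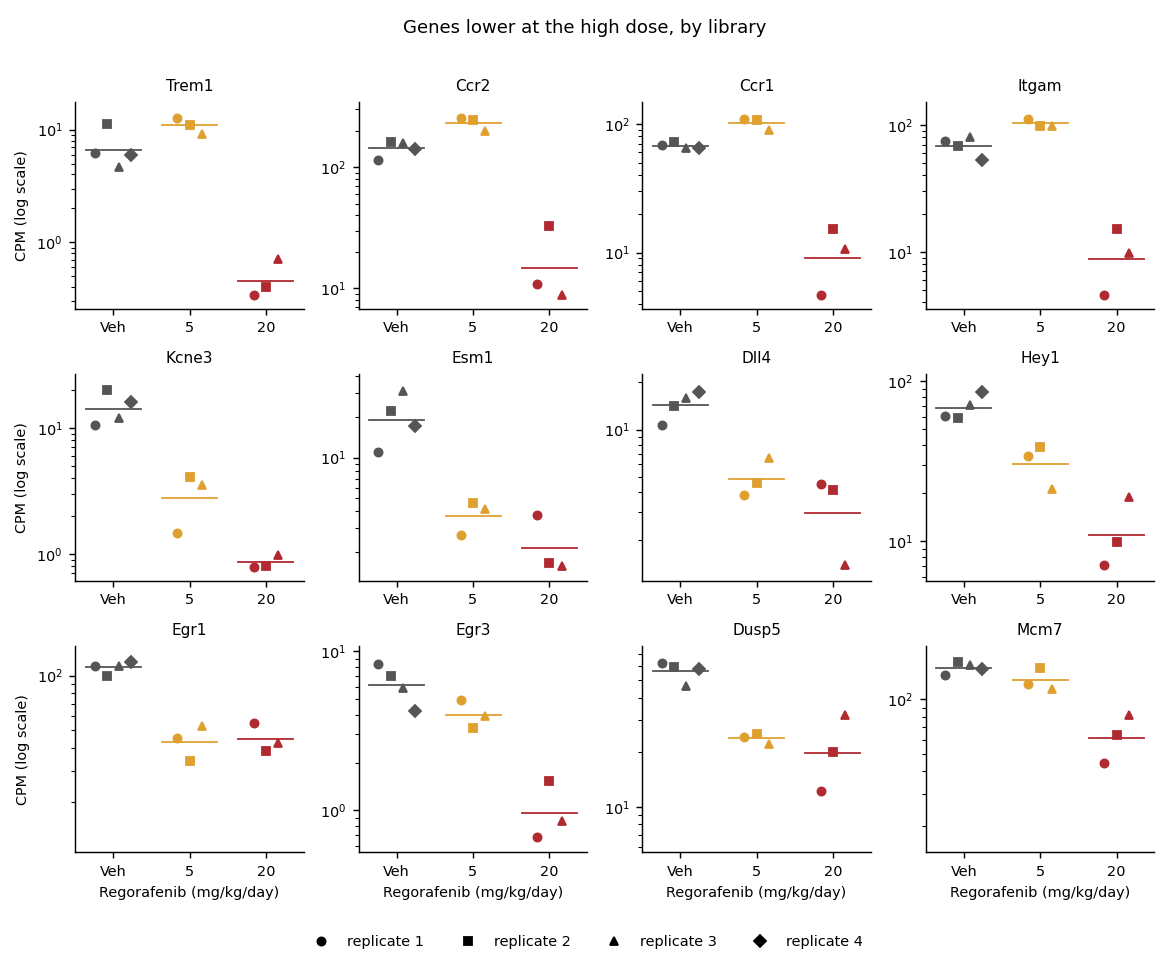
CPM (log axis) of 12 genes in each library of vehicle, low dose and high dose tumors, marked by replicate, with a line at the geometric mean of each group. In all 12 panels the 3 high dose libraries lie below the 4 vehicle libraries. For Trem1, Ccr2, Ccr1 and Itgam the low dose libraries lie at or above the vehicle level, for example at 253, 244 and 197 CPM for Ccr2.

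Genes of the hypoxia response rose in part. Of 30 tested hypoxia and glycolysis genes 7 rose, where 8.8% of all tested genes did: Vegfa, Adm, Egln3, Bnip3, Higd1a, Pdk1 and P4ha2. At equal hepatocyte score 2 of the 30 passed, Adm and Egln3. The changes of 25 of the 30 were positive, and the list median was 0.32, or 0.53 at equal hepatocyte score and 0.83 for high dose replicate 3 alone.

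Before the values, the promoters of 3 of these genes are shown, since hypoxia-inducible factors bind the letters ACGTG. Windows from 250 bases before to 50 bases after the annotated start were taken from RefSeq (GRCm38.p6) and searched for ACGTG on either strand (CACGT on the other). Each line gives 100 bases on the strand of the gene, with the match in capitals.
Bnip3, chr7:138909562-138909661, minus strand, 108 bases before the start: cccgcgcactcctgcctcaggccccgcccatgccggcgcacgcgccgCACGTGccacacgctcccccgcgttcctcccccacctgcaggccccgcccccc
Egln3, chr12:54204025-54204124, minus strand, 229 bases before the start: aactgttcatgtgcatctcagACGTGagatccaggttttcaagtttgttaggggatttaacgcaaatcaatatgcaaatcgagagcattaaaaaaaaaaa
P4ha2, chr11:54100798-54100897, plus strand, 78 bases before the start: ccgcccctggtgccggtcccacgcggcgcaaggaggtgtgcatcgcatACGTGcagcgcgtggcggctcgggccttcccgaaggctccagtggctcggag
In Bnip3 matches on both strands overlap, so that 6 letters are in capitals. The motif was in 20 of the 28 listed genes with a window in the table (71.4%), in 5 of the 7 genes that rose (71.4%), in 3260 of 11593 tested genes with a window (28.1%) and in 5886 of 27025 genes of the whole table (21.8%). A match is a description of the sequence and not evidence of binding. Adm and Pdk1 had no match before the start, Higd1a had a match after it, and Vegfa had a match in 1 of 2 windows.

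Vegfa (ENSMUSG00000023951.17, chromosome 17, 46016993 to 46032369), the ligand of the VEGF receptors, was at 137, 166, 124 and 132 CPM in vehicle and 356, 253 and 303 CPM in high dose libraries. All 3 high dose libraries were above the vehicle range, and the change was 1.12 (SE 0.17, adjusted p 0.0187), or 0.92 (adjusted p 0.0678) at equal score. Adm (ENSMUSG00000030790.15, chromosome 7, 110627661 to 110629820), the vasodilator peptide adrenomedullin, was at 11.3, 10.3, 10 and 13.8 CPM in vehicle, a narrow range, and at 36.8, 49.6 and 84.8 CPM in high dose, highest in replicate 3. Adm changed by 2.33 (SE 0.39, adjusted p 0.0225) and by 2.29 (adjusted p 0.0483) at equal score. Egln3 (ENSMUSG00000035105.5, chromosome 12, 54178981 to 54203860), a prolyl hydroxylase that hypoxia-inducible factors induce, was at 8.31, 15.2, 14.8 and 14.3 CPM against 45, 39.1 and 41.9 CPM. The 3 high dose libraries were close together, with a change of 1.67 (SE 0.25, adjusted p 0.0182) and of 1.43 (adjusted p 0.0499) at equal score. Bnip3, a mediator of mitochondrial autophagy, was at 241, 283, 269 and 216 CPM in vehicle and 420.0, 375 and 643 CPM in high dose, highest in replicate 3, and changed by 0.93 (SE 0.25, adjusted p 0.0452). Higd1a, Pdk1, which holds pyruvate out of mitochondria, and the collagen prolyl hydroxylase P4ha2 rose as well, with log2 changes of 1.05, 0.9 and 1.33.

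Glucose uptake and the core of glycolysis did not pass. Slc2a1, the glucose transporter GLUT1, was at 158, 127, 151 and 159 CPM in vehicle and 105, 137 and 269 CPM in high dose libraries, below vehicle in replicate 1 and above it in replicate 3, with a change of 0.2 (SE 0.28, adjusted p 0.624). Car9, carbonic anhydrase 9, was at 41.3, 41.6, 64.2 and 30 CPM against 51.1, 95.9 and 248 CPM, again highest in replicate 3, and its change of 1.57 (SE 0.51, adjusted p 0.0572) missed the threshold. Ldha was above the vehicle range in all 3 high dose libraries (1236, 1019 and 1321 CPM, against 825, 891, 851 and 882 CPM), with a change of 0.47 (SE 0.16, adjusted p 0.0667). The lactate exporter Slc16a3 (8.6, 20.9 and 19.8 CPM, against 25.7, 27.5, 30.4 and 34.2 CPM) and the regulator of glycolysis Pfkfb4 (5.83, 17.6 and 16.5 CPM, against 25.5, 21.3, 26.8 and 25.8 CPM) were lower without overlap, with changes of -0.84 (SE 0.28, adjusted p 0.0598) and -0.9 (SE 0.34, adjusted p 0.0822) that did not pass. Ndufa4l2, a hypoxia gene that was listed with the pericyte genes, was at 2.84, 3.43, 4.92 and 5.32 CPM in vehicle and a close 15.8, 15.2 and 13.4 CPM in high dose libraries and rose by 1.84 (SE 0.34, adjusted p 0.0265). The count of 7 was 1, 2, 0 and 0 without vehicle replicates 1 to 4, 2, 3 and 7 without low dose replicates 1 to 3, and 8, 4 and 5 without high dose replicates 1 to 3.

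Of the 17 angiogenic ligands, Vegfa, Adm, Pdgfd (2.9, SE 0.53, adjusted p 0.0264) and Fgf1 (3.98, SE 1, adjusted p 0.0418) rose. Fgf1 was at 2.63, 4.23, 6.2 and 6.07 CPM in vehicle and 110.5, 108 and 7.53 CPM in high dose libraries, far higher in replicates 1 and 2 than in replicate 3, and its change was 1.31 (adjusted p 0.384) at equal score. Pdgfa, which was at 62.8, 80.5, 77.5 and 71.8 CPM against 21.8, 33 and 41.1 CPM, fell (-1.19, SE 0.22, adjusted p 0.0269), as did the hepatocyte growth factor gene Hgf (-1.04, SE 0.28, adjusted p 0.0436). Over all tested genes 8.8% rose and 6.82% fell. Vegfb, Vegfc, Pgf, Angpt1 and Pdgfb did not pass, with changes of 0.52, -0.39, -0.26, -0.96 and -0.67. Without vehicle replicates 1, 3 or 4 none of the 17 rose past the threshold (edgeR), and 1 did without vehicle replicate 2 or low dose replicate 1. The falls of Pdgfa and Hgf were both lost without any 1 of vehicle replicates 1 to 4 or low dose replicates 1 and 2.

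**Figure D4:**
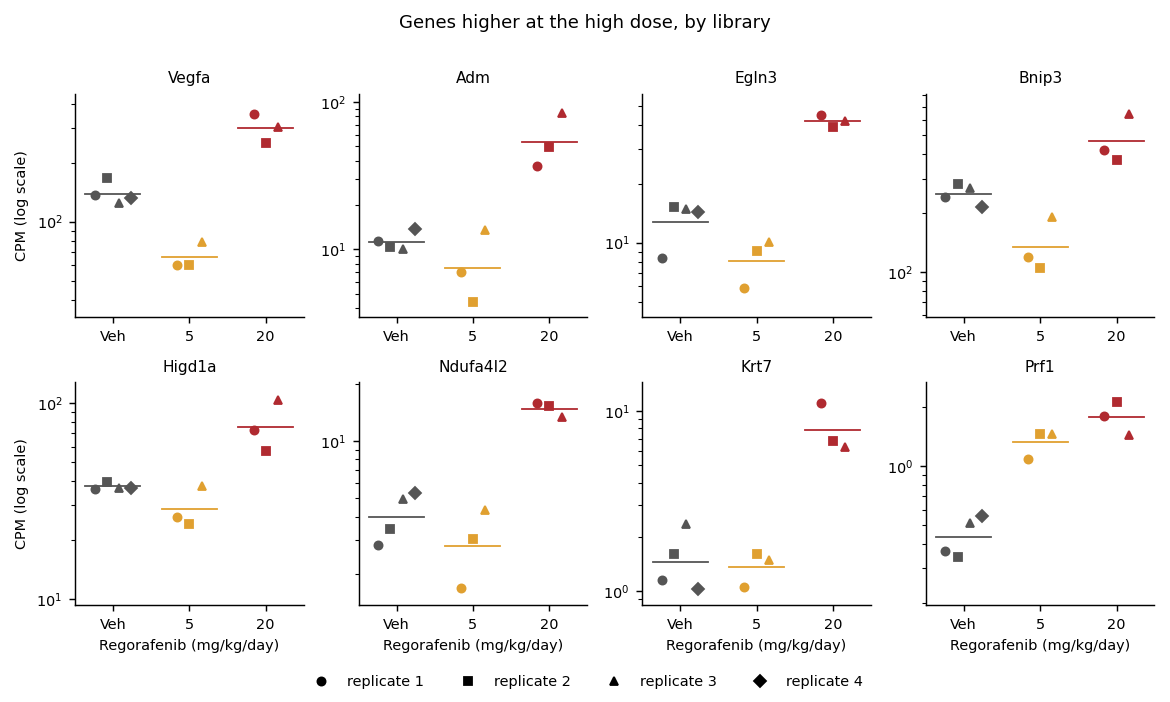
CPM (log axis) of 8 genes that rose, in each library of vehicle, low dose and high dose tumors, marked by replicate, with a line at the geometric mean. In all 8 panels the high dose libraries lie above the vehicle libraries, for Vegfa at 356, 253 and 303 against 137, 166, 124 and 132 CPM.

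Genes that growth factor signaling through ERK switches on were lower in part. Of 21 tested immediate early genes 6 fell, where 6.82% of all tested genes did: Egr1, Egr2, Egr3, Ier2, Junb and Klf6. The list median was -0.47, or -0.35 at equal score and -0.38 for replicate 3 alone. Egr1, a transcription factor that responds within minutes to growth factors, was at 113, 99.1, 114 and 119.5 CPM in vehicle and 54.7, 38.4 and 42.3 CPM in high dose libraries. Both groups were tight and apart from each other, with a change of -1.3 (SE 0.18, adjusted p 0.0156) and of -1.56 (adjusted p 0.022) at equal score. Egr3 (ENSMUSG00000033730.4, chromosome 14, 70077203 to 70082614) was at 8.31, 6.97, 5.91 and 4.21 CPM against 0.679, 1.54 and 0.862 CPM and changed by -2.61 (SE 0.38, adjusted p 0.0169) and -2.33 (adjusted p 0.0602) at equal score. Ier2, Egr2, Junb and Klf6 had log2 changes of -1.03, -1.29, -0.93 and -0.78. Fos was lower in all 3 high dose libraries (8.04, 15.4 and 8.55 CPM, against 20.5, 19.4, 19.1 and 18.2 CPM) at a change of -0.85 (SE 0.27, adjusted p 0.0569), and Jun overlapped (111.7, 138 and 119 CPM, against 115, 89.7, 124 and 113 CPM). The count of 6 was 0, 2, 0 and 1 without vehicle replicates 1 to 4, 3, 3 and 6 without low dose replicates 1 to 3, and 4, 4 and 7 without high dose replicates 1 to 3.

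Of 19 tested feedback genes of the ERK pathway, which are used as a readout of its output, the phosphatases Dusp5 and Dusp6, the inhibitor Spred1 and the transcription factor Etv5 fell, beside 6.82% of all tested genes. Dusp5 was at 62, 59.2, 46.6 and 57.2 CPM in vehicle and 12.2, 20.1 and 31.9 CPM in high dose libraries. Every high dose library was lower, by a change of -1.39 (SE 0.28, adjusted p 0.0313). Dusp6 was at 89.6, 95.1, 88.8 and 108 CPM against 76, 54.8 and 38.9 CPM and changed by -0.75 (SE 0.21, adjusted p 0.0471). Etv5 and Spred1 had log2 changes of -1.28 and -0.92. Ier3 rose instead, at 15.8, 19.7, 15.1 and 22.5 CPM in vehicle and 34.8, 48.2 and 62.2 CPM in high dose libraries (1.41, SE 0.24, adjusted p 0.0228). Spry1, Spry2 and Spry4 did not pass, at changes of 1.32, 0.01 and -0.61. The list median was -0.32, and -0.11 at equal score, where none passed and 3 in each direction had an unadjusted p under 0.05 (edgeR), beside 16.8% of all tested genes. Without any 1 of vehicle replicates 1 to 4, low dose replicates 1 and 2 or high dose replicate 2, none of the 4 falls passed, and without high dose replicate 3, 8 members did.

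The p38, Creb1 and Klf4 genes, a kinase and transcription factor axis that the study followed in cultured macrophages, changed in 1 of 15 members, a share near the 6.82% of all tested genes that fell. The study measured phosphorylation of p38 and Creb1, Klf4 protein and Creb1 binding in those cells. RNA of tumor pieces measures none of these. Mapkapk2, a kinase that p38 activates, was at 173, 164, 183 and 201 CPM in vehicle and 131, 128 and 137 CPM in high dose libraries, and changed by -0.45 (SE 0.12, adjusted p 0.0436). It passed in 2 of 10 fits that left out a library. Creb1 was at 69.2, 91.5, 67.6 and 66.6 CPM against 44.6, 58.5 and 68.8 CPM, with a change of -0.36 (SE 0.18, adjusted p 0.164). Klf4 was at 24.7, 19, 23.4 and 19.6 CPM in vehicle and 10.4, 38.3 and 18.5 CPM in high dose libraries, low in replicate 1 and high in replicate 2, and its change of 0.05 (SE 0.37, adjusted p 0.934) had no stable direction. Mapk14, the gene of p38 alpha, changed by 0.25 (SE 0.13, adjusted p 0.193).

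Genes of the cell cycle were lower in the high dose libraries, most of all in replicate 1. Of 31 tested members 16 fell, where 6.82% of all tested genes did, 28 had an unadjusted p under 0.05, where 40.1% of all tested genes did in either direction, and all 31 changes were negative. The groups did not overlap for 28 members, against 16.6% of all tested genes that were lower without overlap. The median was -1.31, but -0.85 at equal hepatocyte score, where none passed and 23 had an unadjusted p under 0.05 (edgeR), and -0.67 for replicate 3 alone. Mcm7, a subunit of the replication helicase, was at 136, 161, 155 and 146 CPM in vehicle and 44.8, 63.2 and 81.9 CPM in high dose libraries, and changed by -1.24 (SE 0.2, adjusted p 0.0216) and -0.96 (adjusted p 0.0614) at equal score. Tk1, thymidine kinase, was at 67.4, 59.2, 72.6 and 84.1 CPM against a close 34.3, 34.6 and 39.5 CPM, and changed by -0.97 (SE 0.15, adjusted p 0.0191). Mki67, the gene of the proliferation marker Ki-67, was at 385, 599, 425 and 441 CPM against 61.5, 198 and 346 CPM. It was lowest in replicate 1 and highest in replicate 3, no high dose library reached the vehicle range, and the change of -1.19 (SE 0.47, adjusted p 0.0905) did not pass. The replication clamp gene Pcna and the mitotic genes Cdk1, Ccnb1 and Plk1 fell, with log2 changes of -1.12, -1.35, -1.4 and -1.55. The count of 16 was 0, 1, 0 and 0 without vehicle replicates 1 to 4, 1, 2 and 7 without low dose replicates 1 to 3, and 16, 2 and 30 without high dose replicates 1 to 3. DESeq2 called 27 members, voom 18 and total count scaling 1.

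Stress lists moved little. Of 16 tested p53 targets and apoptosis genes Pmaip1, which encodes NOXA, and Sesn1 fell, where 6.82% of all tested genes did, with changes of -1.56 (SE 0.36, adjusted p 0.0365) and -0.63 (SE 0.19, adjusted p 0.0495). Cdkn1a, the gene of p21, was at 166, 128 and 134 CPM in high dose and 105, 118, 108 and 128 CPM in vehicle libraries, with a change of 0.32 (SE 0.13, adjusted p 0.105). Of 28 genes of the integrated stress and unfolded protein responses, the chaperone Dnajb9 (1.08, SE 0.29, adjusted p 0.0444), Xbp1 (0.69, SE 0.2, adjusted p 0.0484) and the lipoprotein receptor Vldlr (1.43, SE 0.39, adjusted p 0.0449) rose and Nupr1 fell (-1.61, SE 0.4, adjusted p 0.0401), shares near the 8.8% higher and 6.82% lower of all tested genes. Dnajb9 and Xbp1 were highest in high dose replicate 1, the piece with most liver, at 81.2, 46.3 and 30 CPM and 332, 265 and 184 CPM in replicates 1 to 3. Ddit3, the gene of CHOP, was at 16.9, 15.4, 21 and 26.4 CPM in vehicle and 18.4, 18.8 and 29.8 CPM in high dose libraries, with a change of 0.16 (SE 0.24, adjusted p 0.629). None of these 6 calls held without any 1 of the 4 vehicle libraries.

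Genes of T cells and cytotoxic lymphocytes were higher at low levels. Of 19 tested T cell genes 11 rose, and of 13 cytotoxic and natural killer cell genes 6 rose, where 8.8% of all tested genes did. The medians were 1.61 and 1.46, with 1.41 and 1.59 at equal hepatocyte score and 0.73 and 0.81 for high dose replicate 3 alone. None of them rose past the threshold at equal score (edgeR). At equal score 10 and 8 had an unadjusted p under 0.05 and a positive change. For most of them high dose replicate 2, the library with fat and B cell genes, was the highest.

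Zap70, a kinase of the T cell receptor, was at 0.741, 0.343, 0.954 and 0.754 CPM in vehicle and 5.32, 4.73 and 1.96 CPM in high dose libraries, which is 18, 6, 26 and 19 counts against 94, 129 and 50 counts. The groups did not overlap, and the change was 2.5 (SE 0.48, adjusted p 0.0278) and 1.89 (adjusted p 0.161) at equal score. Prf1, the gene of perforin, was at 0.37, 0.343, 0.514 and 0.556 CPM against 1.81, 2.13 and 1.45 CPM, similar in the 3 high dose libraries, and changed by 1.99 (SE 0.3, adjusted p 0.0182) and 1.77 (adjusted p 0.0765) at equal score. Cd8a was higher in each high dose library (4.98, 9.02 and 5.29 CPM) than in each vehicle library (2.55, 1.49, 4.4 and 1.35 CPM), but missed the threshold (1.39, SE 0.43, adjusted p 0.0532). Cd3e of the T cell receptor complex, the costimulatory gene Cd28, Cd8b1, the transcription factor Eomes and the granule gene Nkg7 rose, with log2 changes of 1.86, 2.02, 1.61, 2.28 and 1.85. Gzmb, the gene of granzyme B, did not pass, at 0.658, 1.37, 3.3 and 1.03 CPM against 1.53, 1.8 and 2.08 CPM (0.18, SE 0.49, adjusted p 0.812). The count of 11 T cell genes was 0, 0, 0 and 0 without vehicle replicates 1 to 4, 0, 0 and 8 without low dose replicates 1 to 3, and 6, 0 and 15 without high dose replicates 1 to 3. That of 6 cytotoxic genes was 0, 1, 0 and 0 without vehicle replicates 1 to 4, 1, 1 and 5 without low dose replicates 1 to 3, and 5, 1 and 11 without high dose replicates 1 to 3.

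Among 12 tested immune checkpoint genes, the inhibitory receptors Ctla4 and Tigit and the costimulatory Tnfrsf4 rose, with log2 changes of 2.56, 1.59 and 1.72, while Havcr2, which encodes TIM-3 and which macrophages also express, fell with Cd86, 3 and 2 members beside the 8.8% and 6.82% of all tested genes that rose and fell. Havcr2 was at 28.3, 27, 27.3 and 29.1 CPM in vehicle and 4.36, 9.97 and 7.29 CPM in high dose libraries, without overlap (-1.95, SE 0.31, adjusted p 0.0203). Pdcd1, the gene of PD1, overlapped, at 1.32, 0.914, 2.97 and 0.834 CPM in vehicle and 1.53, 4.84 and 2.39 CPM in high dose libraries (0.95, SE 0.53, adjusted p 0.206), and Cd274, the gene of PD-L1, was at 4.44, 9.14, 4.81 and 5.48 CPM against 12.2, 14.3 and 8.07 CPM (0.95, SE 0.34, adjusted p 0.072). Of 14 MHC class I genes 0 passed by edgeR (5 at an unadjusted p under 0.05, 4 by DESeq2 and 0 by voom), with a median of 0.27. Of 9 MHC class II genes 0 passed by edgeR (1 at an unadjusted p under 0.05, 1 by DESeq2 and 0 by voom), and H2-Ab1 had 2768, 1813, 7117 and 3119 counts in vehicle and 3029, 9426 and 2858 counts in high dose libraries. Of 32 interferon-stimulated genes Stat2 (1.09, SE 0.28, adjusted p 0.042), Gbp2 (1.01, SE 0.29, adjusted p 0.0477) and the GTPase Igtp (1.65, SE 0.34, adjusted p 0.032) rose, a share of the list near the 8.8% of all tested genes, and each was highest in high dose replicate 1 or 2. These 3 did not pass without any 1 of vehicle replicates 1 to 4, low dose replicates 1 and 2 or high dose replicate 2, and the checkpoint rises did not either. The falls of Havcr2 and Cd86 were both lost without vehicle replicates 1, 2, 3 or 4.

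B and plasma cell genes were high in high dose replicates 1 and 2 and not, as a list, in replicate 3. Of 18 tested members 11 rose, where 8.8% of all tested genes did, and 17 had an unadjusted p under 0.05, where 40.1% of all tested genes did in either direction, but the groups did not overlap for 3 of them, where 11.8% of all tested genes were higher without overlap. Igkc, the kappa light chain gene, had 22, 36, 46 and 115 counts in vehicle and 1785, 28870 and 61 counts in high dose libraries. Jchain, which joins secreted IgA and IgM, was at 0.329, 1.03, 0.404 and 1.23 CPM against 35.6, 436 and 0.627 CPM. In both, replicate 2 was highest and replicate 3 lay within the vehicle range. Cd22, a B cell receptor, was higher in all 3 (4.47, 13.3 and 3.65 CPM, against 1.19, 1.31, 1.54 and 1.19 CPM) and rose by 2.44 (SE 0.45, adjusted p 0.0265). The list median was 4.93 and was -0.13 for replicate 3 alone. The count of 11 was 0, 0, 0 and 0 without vehicle replicates 1 to 4, 0, 0 and 10 without low dose replicates 1 to 3, and 5, 2 and 18 without high dose replicates 1 to 3. The part of these cells in the treatment comparison was not tested.

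Genes of mesothelium and bile ducts rose. Mesothelial cells form the capsule of the liver, and cholangiocytes line its bile ducts. Of 7 tested mesothelium genes 5 rose, where 8.8% of all tested genes did, with a median of 3.36, or 3.13 at equal hepatocyte score and 2.1 for replicate 3 alone, while 0 passed at equal score by edgeR and 6 had an unadjusted p under 0.05 there. Gpm6a (ENSMUSG00000031517.8, chromosome 8, 54954843 to 55060871) was at 0.741, 1.2, 1.36 and 1.43 CPM in vehicle and 7.3, 23.9 and 5.41 CPM in high dose libraries. Replicate 2 was highest and all 3 were above vehicle, at a change of 3.36 (SE 0.52, adjusted p 0.0187) and 2.97 (adjusted p 0.0703) at equal score. Wt1, a transcription factor of mesothelium, was at 1.11, 2.29, 2.64 and 2.78 CPM against 12.3, 46.8 and 4.08 CPM and rose by 3.25 (SE 0.72, adjusted p 0.0344). Upk3b, Lrrn4 and Muc16 rose as well, with log2 changes of 5.01, 4.54 and 4.72. Msln, the mesothelin gene, did not, at 63.9, 40.8, 40.5 and 30.5 CPM against 14, 55.1 and 58.4 CPM (-0.05, SE 0.44, adjusted p 0.946). Without vehicle replicates 1 to 4 none of the 5 passed, without low dose replicates 1 or 2, 1 passed, and without high dose replicate 2, 2 passed.

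Of 7 tested cholangiocyte genes the keratins Krt7 and Krt19 and the transcription factor Onecut1 rose, where 8.8% of all tested genes did. Krt7 (ENSMUSG00000023039.17, chromosome 15, 101411043 to 101430313) was at 1.152, 1.6, 2.35 and 1.03 CPM in vehicle and 11.1, 6.78 and 6.27 CPM in high dose libraries. All 3 high dose libraries were high, replicate 3 included, and the change was 2.39 (SE 0.36, adjusted p 0.0187) and 2.08 (adjusted p 0.0701) at equal score. Krt19 was at 1.98, 2.91, 2.72 and 1.67 CPM against 17.3, 11 and 14 CPM and rose by 2.6 (SE 0.51, adjusted p 0.0303). Gpc3, an oncofetal proteoglycan, the oncofetal RNA H19, the cadherin Cdh1 and Prom1 rose among 10 epithelial and progenitor genes, beside the same 8.8%, with log2 changes of 3.16, 1.86, 1.87 and 2.3. Gpc3 was highest in replicate 2 (4.92, 22.3 and 5.84 CPM, against 0.617, 1.37, 1.91 and 1.03 CPM). None of these 7 genes passed at equal score (edgeR, each with a positive change there), and none without any 1 of the 4 vehicle libraries.

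Stromal genes moved little as a list. Of 22 tested fibroblast and matrix genes Timp1 (ENSMUSG00000001131.11, chromosome X, 20870166 to 20874735), an inhibitor of matrix proteases, fell and the dermatopontin gene Dpt rose, shares below the 6.82% of all tested genes that fell and the 8.8% that rose. Timp1 was at 132, 185, 135 and 158 CPM in vehicle and 42.1, 59 and 61.2 CPM in high dose libraries. The high dose values lay close together and below every vehicle value, with a change of -1.49 (SE 0.19, adjusted p 0.0143) and of -1.36 (adjusted p 0.0326) at equal score. Dpt was at 4.69, 13.3, 10.8 and 12.9 CPM against 66.1, 196 and 14 CPM, highest in replicate 2, and rose by 3.14 (SE 0.77, adjusted p 0.0399). The main collagen gene Col1a1 was at 3189, 2304, 3754 and 3649 CPM in vehicle and 931, 3007 and 3479 CPM in high dose libraries, low in replicate 1 alone, and changed by -0.38 (SE 0.39, adjusted p 0.488). Among 15 pericyte and smooth muscle genes Rgs5 (2.37, SE 0.58, adjusted p 0.0399), Ndufa4l2 and Myl9 (1.6, SE 0.43, adjusted p 0.0444) rose and the adhesion molecule Mcam (-1.83, SE 0.34, adjusted p 0.0265) fell, and of these the share that fell was near that of all genes. Rgs5 was far higher in replicates 1 and 2 than in replicate 3 (199.5, 120.0 and 34 CPM, against 10.2, 24, 30.4 and 26.7 CPM) and its change was 0.79 (adjusted p 0.329) at equal score. Rgs5 and Hgf were also the members past the threshold among 8 genes of hepatic stellate cells, the pericytes of liver, 1 in each direction beside the 8.8% and 6.82% of all genes. Without any 1 of vehicle replicates 1 to 4 the pericyte calls were lost, as was that of Dpt, and Timp1 was lost without vehicle replicates 3 or 4.

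Genes of hepatocytes rose in part. Of 40 tested hepatocyte genes 7 rose and 38 had an unadjusted p under 0.05, with a median of 3.92, and of 0.06 for replicate 3 alone. These genes make up the hepatocyte score, so that their median at equal score (-0.11) is near 0 by construction. Cyp2e1, a major cytochrome P450 of hepatocytes, was at 22.1, 139, 44.7 and 259 CPM in vehicle and 12070, 2625 and 135 CPM in high dose libraries, with replicate 3 inside the vehicle range. Its change of 5.41 (SE 1.54, adjusted p 0.0483) was 0.79 (adjusted p 0.383) at equal score. Of 19 cytochrome P450 and xenobiotic genes 9 rose and the quinone reductase gene Nqo1 fell (-1.09, SE 0.31, adjusted p 0.0484), with a list median of 4.27, or 0.52 at equal score. Over all tested genes 8.8% rose. The count of 9 was 0, 0, 0 and 0 without vehicle replicates 1 to 4, 0, 0 and 14 without low dose replicates 1 to 3, and 0, 0 and 16 without high dose replicates 1 to 3, and voom called 0. Cyp7a1, the rate-limiting enzyme of bile acid synthesis, was at 0, 1.08, 0.11 and 2.14 CPM against 183, 37.4 and 2.16 CPM and Cyp4a10, a fatty acid hydroxylase, at 0.411, 0.114, 0.11 and 0.318 CPM against 32.4, 18.3 and 3.14 CPM. Both were lowest in replicate 3 and changed by 6.48 (SE 1.83, adjusted p 0.048) and 6.19 (SE 1.28, adjusted p 0.0321), and neither passed at equal score, where they changed by 1.73 (adjusted p 0.23) and 3.3 (adjusted p 0.106). The count of hepatocyte genes was 0, 0, 0 and 0 without vehicle replicates 1 to 4, 0, 0 and 23 without low dose replicates 1 to 3, and 0, 0 and 32 without high dose replicates 1 to 3, and DESeq2 called 38 and voom 0.

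Of the 40 genes of the score Gnmt was higher and the kininogen gene Kng1 lower at equal hepatocyte score, and 5 higher and 11 lower had an unadjusted p under 0.05 there. Since the score averages these same genes, changes in both directions at equal score follow in part from its construction. Gnmt (ENSMUSG00000002769.9, chromosome 17, 46725664 to 46729168), glycine N-methyltransferase, was at 0.494, 3.2, 0.844 and 8.18 CPM in vehicle and 791, 126 and 16.1 CPM in high dose libraries. All 3 were above the vehicle range, replicate 1 by far, and the change of 6.61 (SE 1.78, adjusted p 0.0449) was 2.05 (adjusted p 0.0221) at equal score. Inmt (ENSMUSG00000003477.5, chromosome 6, 55170626 to 55175043), indolethylamine N-methyltransferase, was at 0.0411, 0.229, 0.11 and 1.95 CPM against 235, 46.3 and 3.84 CPM, with a change of 7.32 (SE 1.77, adjusted p 0.0396) and of 2.9 (adjusted p 0.0378) at equal score. Kng1 changed by 2.93 (SE 1.27, adjusted p 0.117), and by -0.96 (adjusted p 0.0444) at equal score. The other largest rises of both fits, whether liver-linked or not, were those of the glutamate transporter Slc1a2 (5.73, SE 1.34, adjusted p 0.0369), the GABA transaminase Abat (5.49, SE 1.42, adjusted p 0.0428), the immunoglobulin transporter Pigr (5.3, SE 1.45, adjusted p 0.0456), the lipogenic transcription factor Mlxipl (5.2, SE 1.24, adjusted p 0.0388), Sned1 (4.21, SE 0.56, adjusted p 0.0143) and AI838599 (4.48, SE 0.58, adjusted p 0.0143). Sned1, AI838599 and Inmt were not liver-linked. Pigr was at 4.98, 18.8, 11.4 and 40 CPM in vehicle and 1814, 352 and 61.9 CPM in high dose libraries. Without 1 library, Sned1 passed in 7 of 10 fits and AI838599 in 8, and Gnmt, Inmt, Slc1a2, Abat, Pigr and Mlxipl in 2 each.

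Genes of Kupffer cells and of sinusoidal endothelium fell at equal hepatocyte score in part. Clec4f, a lectin of Kupffer cells, the macrophages of liver, was at 4.03, 8.45, 10.8 and 35 CPM in vehicle and 78.4, 13.6 and 1.06 CPM in high dose libraries. Replicate 1 was highest of all 7 and replicate 3 lowest, and the change of 1.08 (SE 1.33, adjusted p 0.564) became -3.5 (adjusted p 0.0171) at equal score. Vsig4 and Cd5l also fell at equal score, with log2 changes of -2.99 and -3.74, as did Clec4g and Bmp2 of sinusoidal endothelium, with -2.79 and -2.7, where 0.557% of all tested genes fell at equal score. The medians of the 8 Kupffer cell and 11 sinusoidal genes were 1.08 and 0.83, and -1.71 and -2.04 at equal score. For high dose replicate 3 alone they were -3.73 and -2.38. Of 7 erythrocyte genes 1 fell by edgeR and 4 by DESeq2, beside 6.82% of all tested genes by edgeR. DESeq2 also called 2 of the 7 higher, and without high dose replicate 3 edgeR called 2 higher and 0 lower. Hbb-bs, a beta globin gene and the member called by edgeR, was at 127, 102, 119 and 387 CPM in vehicle, where replicate 4 was high, and 53.9, 25.2 and 36.4 CPM in high dose libraries, with a change of -2.25 (SE 0.66, adjusted p 0.0496), and of -3.1 (adjusted p 0.0382) at equal score. Without 1 library Hbb-bs passed in 1 of 10 fits.

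Metabolic lists shifted with replicate 1. Of 10 mitochondrially encoded genes 0 passed by edgeR (6 at an unadjusted p under 0.05, 5 by DESeq2 and 0 by voom), with a median of 0.98 that was 0.03 at equal score. Of these, mt-Co2, mt-Co3 and mt-Atp6 were at 0.105 to 1.32 CPM over the batch, beside mt-Co1 at 8634 to 35130 CPM, and mt-Nd6 was high in vehicle replicate 2. mt-Nd1 was at 1509, 2090, 1687 and 1843 CPM in vehicle and 6845, 2564 and 1834 CPM in high dose libraries, far highest in replicate 1, above vehicle in replicate 2 and within the vehicle range in replicate 3. Of 29 nuclear genes of oxidative phosphorylation 0 passed by edgeR (2 at an unadjusted p under 0.05, 0 by DESeq2 and 0 by voom), with a median of 0.39 that was -0.18 at equal score. Of 24 cholesterol synthesis genes Tm7sf2 rose (3.06, SE 0.88, adjusted p 0.0484) and the regulator Srebf2 fell (-0.76, SE 0.22, adjusted p 0.0498), shares below the 8.8% and 6.82% of all tested genes that rose and fell. Both calls were lost without any 1 of vehicle replicates 1 to 4, and 15 members rose without high dose replicate 3. The median of the cholesterol list was 0.81 over 3 libraries, -0.77 at equal score and -1.09 for replicate 3 alone. Acute phase genes, 0 of 16 by edgeR (6 at an unadjusted p under 0.05, 6 by DESeq2 and 0 by voom), had a median of 2 that was -0.01 at equal score.

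**Figure D5:**
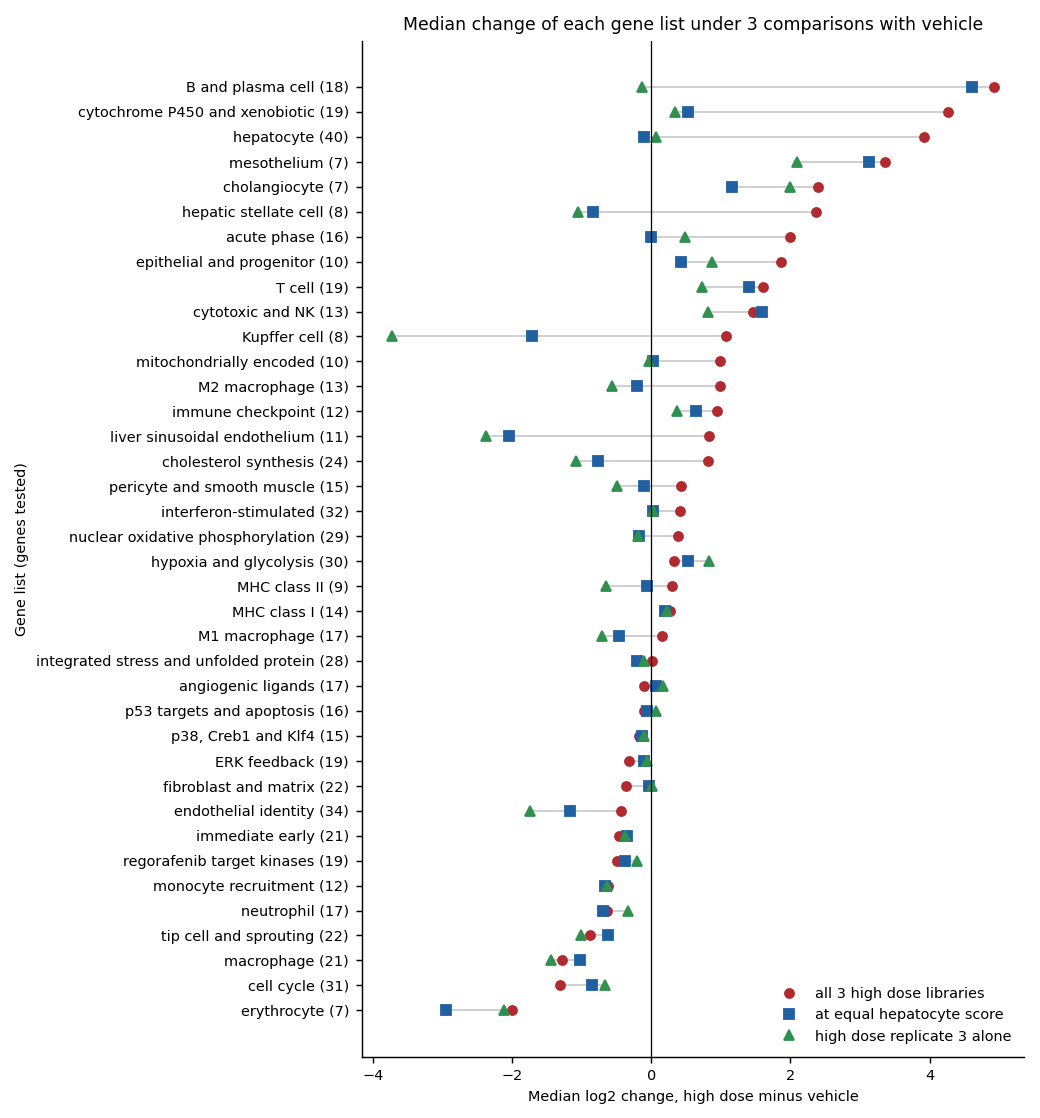
Median log2 change between high dose and vehicle of each list with at least 5 tested genes, for the 3 high dose libraries, at equal hepatocyte score, and for high dose replicate 3 alone. The 3 values lie close for the macrophage (-1.29, -1.02 and -1.44) and tip cell lists (-0.88, -0.62 and -1.01) and far apart for the hepatocyte list (3.92, -0.11 and 0.06), whose genes make up the score, and the Kupffer cell list (1.08, -1.71 and -3.73).

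The low dose libraries of the same batch allowed a test of the difference between doses. High dose differed from low dose in 697 of 16525 genes (4.22%). Of these, 288 were higher (1.74%) and 409 lower (2.48%), and 4842 genes (29.3%) reached an unadjusted p under 0.05. Leaving out a library gave from 62 (without low dose replicate 1) to 4488 (without high dose replicate 3). Of these 697 genes 563 also passed between high dose and vehicle. Both comparisons share the high dose libraries. With only the libraries of both doses in the fit, 0 genes passed by edgeR and 2650 had an unadjusted p under 0.05. Low dose replicate 3 held Alb at 10750 CPM, against 1220 and 1030 CPM in low dose replicates 1 and 2. The doses were not compared at equal hepatocyte score.

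Myeloid genes separated the doses. Of 21 macrophage genes 15 were lower at the high than at the low dose, where 2.48% of all tested genes were. The list median was -2.01. Ccr2 was at 253, 244 and 197 CPM in low dose libraries, above vehicle, and its change from low to high dose was -3.73 (adjusted p 0.00775). Ccl12 was at 89.6, 87.6 and 85 CPM, also above vehicle, and differed by -4.03 (adjusted p 0.00677). For Trem1 (12.7, 11.1 and 9.14 CPM at the low dose) the difference was -4.48 (adjusted p 0.00464), and for Itgam (at least 97.6 CPM in each low dose library) it was -3.38 (adjusted p 0.00543). Hypoxia genes separated the doses in part. Of 30 members 9 were higher at the high dose, where 1.74% of all tested genes were. Vegfa was at 60.3, 59.7 and 78.7 CPM at the low dose, under the vehicle range, and differed by 2.2 (adjusted p 0.00396), and Egln3 (5.83, 9.07 and 10 CPM) differed by 2.34 (adjusted p 0.00677).

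Esm1, Dll4 and Egr1 were below the vehicle range at both doses. Esm1 was at 2.65, 4.64 and 4.16 CPM in low dose libraries, near the high dose values, with a difference of -0.72 (adjusted p 0.304) between doses. Dll4 was at 3.84, 4.57 and 6.55 CPM and differed by -0.58 (adjusted p 0.357), and Egr1 was at 45.2, 34 and 52.8 CPM and differed by 0.04 (adjusted p 0.904). The values of both doses overlapped for these 3 genes. For Kcne3 (1.47, 4.08 and 3.53 CPM) the doses did differ, by -1.81 (adjusted p 0.0455), as they did for Egr3 (4.93, 3.31 and 3.92 CPM), by -1.97 (adjusted p 0.0307), and Ier2 (51.7, 54.4 and 50.2 CPM), by -0.85 (adjusted p 0.0379). Jun was at 120.0, 138 and 140.1 CPM at the low dose, within or above the vehicle range. Cell cycle genes lay closer to vehicle at the low dose, with Mki67 at 354, 406 and 313 CPM and Mcm7 at 121, 149.6 and 114 CPM. Of 31 members Mcm7, Tyms and Tk1 were lower at the high dose, where 2.48% of all tested genes were. An unadjusted p under 0.05 was reached by 26 members, and by 29.3% of all tested genes in either direction. Of the T cell genes that rose, none passed between doses (edgeR, with 1 of the 19 members higher at an unadjusted p under 0.05): Zap70 was at 1.12, 2.34 and 2.43 CPM at the low dose and Prf1 at 1.08, 1.47 and 1.45 CPM, above all vehicle libraries and overlapping the high dose libraries.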

How the data were processed

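RNA had been extracted from snap-frozen tumor pieces and sequenced from stranded poly(A) libraries. Per the labels and the study's methods, the authors trimmed reads with cutadapt 2.4, aligned them to GRCm38 with STAR 2.7.2a and counted reads per gene of the Gencode M19 annotation. The authors deposited these counts without normalization. Which strand column of STAR was used is not given in the sources used here, so overlapping and antisense genes cannot be told apart, and near-identical copies (globin, Mup, Ces, Saa and immunoglobulin genes) are uncertain.

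The 10 libraries of the dose experiment were fitted together (vehicle, low dose and high dose) with edgeR 4.0.16 in R 4.3.3: filterByExpr (minimum count 10, minimum total 15), TMM scaling, the robust quasi-likelihood test, 2-sided, and Benjamini-Hochberg adjustment over 16525 of 54446 genes, with a threshold of 0.05. Limma 3.58.1 (voom) and DESeq2 1.42.0 were alternatives. Log2 CPM used a prior count of 2. The hepatocyte score averages 40 genes on that scale and was the covariate of the second fit. High dose replicate 3 alone against vehicle, and a fit without genes of other tissues, were added after seeing the data. Adipoq, Plin1 and Cfd were below the filter and are given as counts. The lowest levels rest on few counts, and counting error does not cover the spread between pieces. On simulated data with 200 genes changed by 2 on the log2 scale, the test recovered 62%, with 4 false calls.

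Replicate numbers do not pair the samples: the correlations of deviations from the group means between high dose and vehicle libraries of the same number were -0.54, -0.05 and 0.14. No pair of libraries agreed within sampling noise. The members and the gene lists (39 lists, 718 of 719 entries matched by symbol) were chosen with earlier results of these data known. Genes were named from a fixed panel and as the 2 members of each list with the smallest p. The 8 largest rises and falls past the threshold without overlap between groups (mean log2 CPM of at least 1) were also named. The same rule was applied to genes past the threshold in both fits in the same direction. Both sets were ranked by the change without the covariate, so genes called at equal score only were not named in this way. Other list members named in the text were chosen after their values were seen. Versions of the other tools were Python 3.11.15, pandas 2.3.3 and matplotlib 3.10.9. Some genes are not reported here.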

Additional observations from a re-analysis of the deposited data

Results flagged for a closer look

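Among the 131 named genes, 4 had a vehicle library far from the other 3, past Dixon's 95% critical value for the gap to the nearest library over the range of the group. Chance flags about 1 in 20 groups. Fcna was at 8.058 CPM in vehicle replicate 4, against 2.675 to 3.193 CPM in the others. Hbb-bs was at 387.2 CPM in vehicle replicate 4, against 101.6 to 126.6 CPM. Egr2 was at 4.698 CPM in vehicle replicate 3, against 6.748 to 6.954 CPM. Egln3 was at 8.312 CPM in vehicle replicate 1, against 14.29 to 15.25 CPM. High dose replicates 1 to 3 were at 26.1, 18.5 and 1.18 CPM for Fcna, so that these groups overlapped, and the groups of the other 3 genes did not overlap.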

How the results depend on the processing

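The count of genes past the threshold between high dose and vehicle (2582) stayed within 1.5 times under RLE scaling, scaling without liver genes, at least 10 counts in every library, the non-robust fit and the fit without genes of other tissues. It was 282 with total count scaling, 416 without a filter, 5275 with DESeq2, 1349 with voom, 4 with only the groups compared, 139 with the hepatocyte score and 536 with the mitochondrial share as covariate, 4409 with all 32 libraries, 378 for high dose replicate 3 alone (1 library, assumed to vary like the other groups, 18192 genes tested), and from 15 to 7030 without 1 library. With the replicate number as a block (replicate block) it was 1, with 4006 genes at an unadjusted p under 0.05. The numbers share no animal, litter or day in the labels, so this block is no pairing. At equal hepatocyte score the count (139) was 44 with only the groups compared, 977 with DESeq2, 2 with the replicate block, 1060 with all 32 libraries and from 5 to 396 without 1 library. Between doses the count (697) was 3059 with DESeq2, 1 with the replicate block, 0 by edgeR with only the groups compared (2650 at an unadjusted p under 0.05) and from 62 to 4488 without 1 library. The cause of these shifts was not tested, beside the fewer samples of some fits.

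Of 3226 values of the 131 named genes under the alternatives, 2183 kept their direction and side of the threshold, 915 fell short of it, 72 passed it and 56 changed sign. The log2 change turned with the hepatocyte covariate for Fcna (-1.09), Tek (-0.51), Alb (-0.21), Wnt2 (-0.29), Clec4f (-3.5), Cd163 (-0.84), Stab2 (-2.41), Ndufa1 (-0.05) and Apln (0.39). It turned with the mitochondrial covariate for Clec4f (-2.55), Stab2 (-1.66), Col1a1 (0.29), Pecam1 (0.22), Sdha (-0.08), Ndufa1 (-0.05), Apln (0.51) and mt-Nd1 (-0.01). For high dose replicate 3 alone it turned for Fcna (-1.83), Klf4 (-0.21), Tek (-1.24), Cyp3a11 (-0.26), Wnt2 (-1.94), Clec4f (-3.75), Cidec (-1.4), Cd163 (-3.71), Stab2 (-2.77), Col1a1 (0.12), Sdha (-0.16), H2-Oa (-0.95), H2-Ab1 (-0.42), Tm7sf2 (-0.01), Ndufa1 (-0.03) and Apln (0.64). It also turned for Klf4 with total count scaling (-0.03), voom (-0.08) and the replicate block (-0.1), for Clec4f (-0.24) and Stab2 (-0.2) with voom, and for Pecam1 with scaling without liver genes (0.01). Without 1 library the change ranged from -1.22 to 0.47 for S100a8, from -0.57 to 0.39 for Klf4, from -0.34 to 0.48 for Slc2a1, from -1 to 2 for Clec4f, from -0.53 to 1.31 for Stab2, from -0.15 to 0.33 for Ddit3, from -0.74 to 0.03 for Col1a1, from -1.24 to 0.36 for Pecam1, from -0.08 to 0.83 for Gzmb, from -0.06 to 1.81 for H2-Oa, from -0.08 to 0.88 for H2-Ab1 and from -0.71 to 0.3 for Apln.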

Other observations

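Further genes of the naming rule had large changes. Sh2d1b1, an adaptor of natural killer and myeloid cells, was at 11.8, 10.2, 12.2 and 10.9 CPM in vehicle and 0.962, 1.87 and 1.45 CPM in high dose libraries. Its groups did not overlap, the log2 change was -2.97 (SE 0.28, adjusted p 0.00847), or -2.78 (adjusted p 0.011) at equal hepatocyte score, and it passed in all 10 fits that left out a library. Gm5150 was at 7.12, 10.4, 7.19 and 8.26 CPM against 1.53, 1.14 and 0.627 CPM and changed by -2.91 (SE 0.41, adjusted p 0.0153), or -3.62 (adjusted p 0.011) at equal score. Tnnt2, which encodes cardiac troponin T, was at 16.9, 26.4, 12.3 and 20.7 CPM in vehicle and 2.72, 1.47 and 2.43 CPM in high dose libraries, low in all 3, with a change of -3.12 (SE 0.49, adjusted p 0.0191) and of -2.94 (adjusted p 0.0622) at equal score. Among the largest rises, Cyp26a1, which breaks down retinoic acid, was at 0.288, 0.685, 0.991 and 1.27 CPM in vehicle and 196, 22 and 1.69 CPM in high dose libraries. Car3, a carbonic anhydrase of fat, muscle and liver, was at 1.19, 32.6, 8.37 and 111 CPM against 7343, 1933 and 113 CPM. Both were high in high dose replicates 1 and 2, with changes of 6.48 (SE 1.4, adjusted p 0.034) and 6.35 (SE 1.82, adjusted p 0.0484), and of 1.73 (adjusted p 0.354) and 2.05 (adjusted p 0.172) at equal score. AI838599 was at 0.247, 0.628, 1.03 and 0.913 CPM in vehicle and 13.2, 28 and 6.51 CPM in high dose libraries and passed in 8 of 10 fits that left out a library.

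Vehicle replicate 2 stood apart from the other vehicle libraries for 3 further genes. Mitochondrial mt-Nd6 was at 9.46, 187, 9.91 and 8.3 CPM in vehicle replicates 1 to 4, Foxp3, the transcription factor of regulatory T cells, at 0.0823, 3.94, 0.33 and 0.278 CPM, and Cd247, a T cell receptor chain, at 0.453, 3.71, 0.55 and 0.278 CPM.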
